A study of Mus musculus with 5 samples.

Results

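Reabsorption of filtered protein in the kidney depends on a small set of genes, and 8 of the 24421 genes counted in this RNAseq experiment were chosen for that function, by symbol, from their known role. They encode the receptors megalin (*Lrp2*) and cubilin (*Cubn*), the cubilin partner amnionless (*Amn*), the megalin chaperone (*Lrpap1*), the adaptor *Dab2*, the endosomal proteins *Clcn5* and *Ocrl*, and the recycling receptor *Fcgrt*. All 8 passed the filter on low counts. The libraries came from kidney cortex of 3 *Fnip1* null mice (Fnip1-/-, mice 8637, 9210 and 9121) and 2 wildtype mice (Fnip1+/+, mice 9055 and 9056), all on a C57BL6J background, with 1 library per mouse. Fnip1 is a partner of Folliculin, the protein lost in Birt-Hogg-Dubé syndrome. The null allele came from mutagenesis with the chemical ENU and was present in all tissues, so the loss was not limited to the tubule. The sample labels give neither the age nor the sex of a mouse, and the study gives age only as a range of weeks. The study's text names heterozygous controls where the labels and the figure legend name wildtype mice, and its legend counts 3 of them where 2 were analysed here.

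Megalin and cubilin sit in the apical membrane of the proximal tubule, where they bind albumin, vitamin carriers, hormones and small proteins that have passed the glomerulus. The loaded receptors are taken into clathrin-coated pits with the help of Dab2, release their cargo in acidifying endosomes and return to the surface, while the cargo goes on to lysosomes or, for ligands of the neonatal Fc receptor, back across the cell. Inherited loss of megalin, cubilin, amnionless, the chloride/proton exchanger ClC-5 or the phosphatase OCRL leads to loss of low molecular weight proteins or albumin in the urine, which is why the group is usually considered together.

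*Fnip1* itself was at 21.0, 16.9 and 16.0 CPM (normalized read counts) in the null mice and at 51.7 and 48.6 in the wildtype mice. The null mice lay below both wildtype mice (log2 fold change -1.48, adjusted p = 0.0330 by the quasi-likelihood test of edgeR). The adjusted p was 8.03e-14 by the exact test of edgeR, 7.67e-14 by its likelihood ratio test and 2.00e-13 by DESeq2. Without mouse 9210 the call was lost (adjusted p = 0.126 by the quasi-likelihood test), in a fit where 0 of all genes tested passed the FDR. The log2 fold change was -1.44 without 9210, -1.44 without 9055 and -1.53 without 9056. CPM here are counts scaled by the TMM method to a common library size, the usual unit of normalized read count. Gene counts per library ran from 15799114 to 19132145, at which 3 counts correspond to 0.158 to 0.186 CPM. The library labelled 9121 stood apart from the other 4 in genes of the sex chromosomes. Its *Xist* level was 314 CPM against 0.171 to 1.41 in the other 4, and its count of *Ddx3y* was 0 where the other 4 ranged from 42.8 to 52.1 CPM. The values of the 8 genes and of the lists read with them are therefore also given without mouse 9121. The proximal tubule, the segment these genes are known from, was represented in every library: *Slc34a1*, its sodium-phosphate cotransporter, was at 3960 to 6341 CPM over the 5 mice.

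Promoter sequences are shown for the 3 genes whose null mice all lay below both wildtype mice (*Lrp2*, *Lrpap1* and *Fcgrt*) and for *Amn*, the only gene of the 8 with the letters CACGTG in this window. They come from RefSeq on GRCm38.p6, run 5′ to 3′ on the gene's strand up to its start, leave out bases that GENCODE M21 places in an exon, and carry motif matches on either strand in capitals. The *Lrp2* stretch is chr2:69586066-69586279 (minus strand), the *Lrpap1* stretch chr5:35105767-35105949 (minus strand), the *Fcgrt* stretch chr7:45103852-45104072 (minus strand) and the *Amn* stretch chr12:111270846-111271094 (plus strand).
Lrp2: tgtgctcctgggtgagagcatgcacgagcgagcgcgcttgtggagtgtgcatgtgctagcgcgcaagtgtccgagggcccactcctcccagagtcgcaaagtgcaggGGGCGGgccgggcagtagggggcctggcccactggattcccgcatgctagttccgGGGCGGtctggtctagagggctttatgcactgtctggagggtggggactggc
Lrpap1: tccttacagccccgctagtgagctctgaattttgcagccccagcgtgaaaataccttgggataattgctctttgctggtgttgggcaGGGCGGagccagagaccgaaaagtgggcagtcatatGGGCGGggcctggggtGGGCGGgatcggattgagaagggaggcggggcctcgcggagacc
Fcgrt: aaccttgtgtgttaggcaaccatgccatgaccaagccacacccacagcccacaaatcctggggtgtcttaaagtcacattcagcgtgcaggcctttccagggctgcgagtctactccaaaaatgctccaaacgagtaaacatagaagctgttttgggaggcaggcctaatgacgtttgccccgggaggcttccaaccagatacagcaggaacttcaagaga
Amn: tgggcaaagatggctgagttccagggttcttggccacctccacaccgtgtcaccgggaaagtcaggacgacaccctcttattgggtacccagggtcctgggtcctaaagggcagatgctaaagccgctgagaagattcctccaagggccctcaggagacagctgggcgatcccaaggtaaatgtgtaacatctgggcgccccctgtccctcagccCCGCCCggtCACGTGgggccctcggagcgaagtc

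The capitals in *Lrp2* and *Lrpap1* are the GC box GGGCGG, the core letters of the Sp1 site. *Lrp2* held 2, whose first bases lie 143 and 88 bases before the RefSeq start. *Lrpap1* held 5 in the full 250 bases before its start, of which 3 are in the stretch shown. *Fcgrt* had no match to any of the motifs searched. In *Amn*, CACGTG, the palindrome bound by many E-box factors, begins 26 bases before the start and the reverse complement of GGGCGG begins 35 bases before it. Over 32851 RefSeq promoters of the same length, 32.7% held GGGCGG and 6.02% held CACGTG. Of the 10 promoters listed for the 8 genes, 5 held GGGCGG and 1 held CACGTG. The other motifs searched were GTTAAT, a partial HNF1 site found in 1 of the 10 member promoters and in 6.43% of all promoters, the nuclear receptor repeat of AGGTCA after a single free base, found in 0 of the 10 and in 0.0335% of all, and CAAAGTCCA, an HNF4-type site found in 0 of the 10 and in 0.384% of all. *Cubn* had none of these letters, and its window was richer in A and T, with 39.6% G or C against 66.4% in *Lrp2*. These matches describe letters in a window and are not evidence of binding.

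Transcript levels of the 8 genes spanned a wide range. Per kilobase of exon, wildtype means were 167 CPM for *Lrpap1*, 146 for *Lrp2*, 134 for *Fcgrt*, 99.4 for *Amn*, 81.1 for *Dab2*, 36.0 for *Cubn*, 6.92 for *Clcn5* and 2.84 for *Ocrl*. In the 2 wildtype mice the ranges of neighbours in this order did not overlap. Over all 5 mice, ranges of per-kilobase levels overlapped between each pair of neighbours from *Lrpap1* down to *Dab2*, and did not overlap between *Dab2* and *Cubn*, *Cubn* and *Clcn5*, or *Clcn5* and *Ocrl*. In the null mice the per-kilobase means of *Lrp2* and *Fcgrt*, 97.0 and 97.4 CPM, were nearly equal. *Cubn* was thus measured at a lower level per length than its partner amnionless in every mouse.

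None of the 8 genes passed an FDR of 5% between the genotypes by the quasi-likelihood test of edgeR, with or without the added threshold of a 2-fold change. *Lrp2*, *Lrpap1* and *Fcgrt* had the lowest levels in null relative to wildtype mice, at 66.5%, 74.5% and 72.6% of the wildtype mean (3 null and 2 wildtype mice). *Cubn* and *Amn* were at 79.3% and 84.7%, while *Dab2*, *Clcn5* and *Ocrl* were at 98.4%, 91.4% and 104%. Over all 13874 genes tested, 0.526% passed FDR with 2-fold (0.123% lower in null mice) and 0.678% passed the FDR alone. At an unadjusted p under 0.05, 3 of the 8 were lower (*Lrp2*, *Lrpap1* and *Fcgrt*) and 0 were higher, where 25.1% of all genes passed in either direction and 11.2% were lower. The exact and likelihood ratio tests of edgeR called 0 of the 8 at the FDR alone, where they called 9.77% and 10.6% of all genes, and DESeq2 called 2, *Lrp2* and *Lrpap1*, where it called 10.3%.

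Every null mouse lay below both wildtype mice in 3 of the 8 genes, and above both in 0. Over all genes tested these shares were 23.0% and 22.9%. The log2 fold change was negative in 7 of the 8 and the median was -0.29, beside a median of 0.0035 over all genes, of which 6865 were negative and 7009 positive. Without mouse 9121, 5 of the 8 were negative with a median of -0.19. With total counts only, 5 were negative with a median of -0.13, and relative to proximal tubule markers 3 were negative with a median of 0.09. The number of the 8 below both wildtype mice was 3 without mouse 9121 and 2 with total counts only. Summed over the 8 genes, levels were 3250 to 4152 CPM in null mice and 4614 to 5038 CPM in wildtype mice, and *Lrp2* was the largest part of it. In a bulk tissue, fewer proximal tubule cells and less RNA per cell cannot be told apart.

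**Figure D1:**
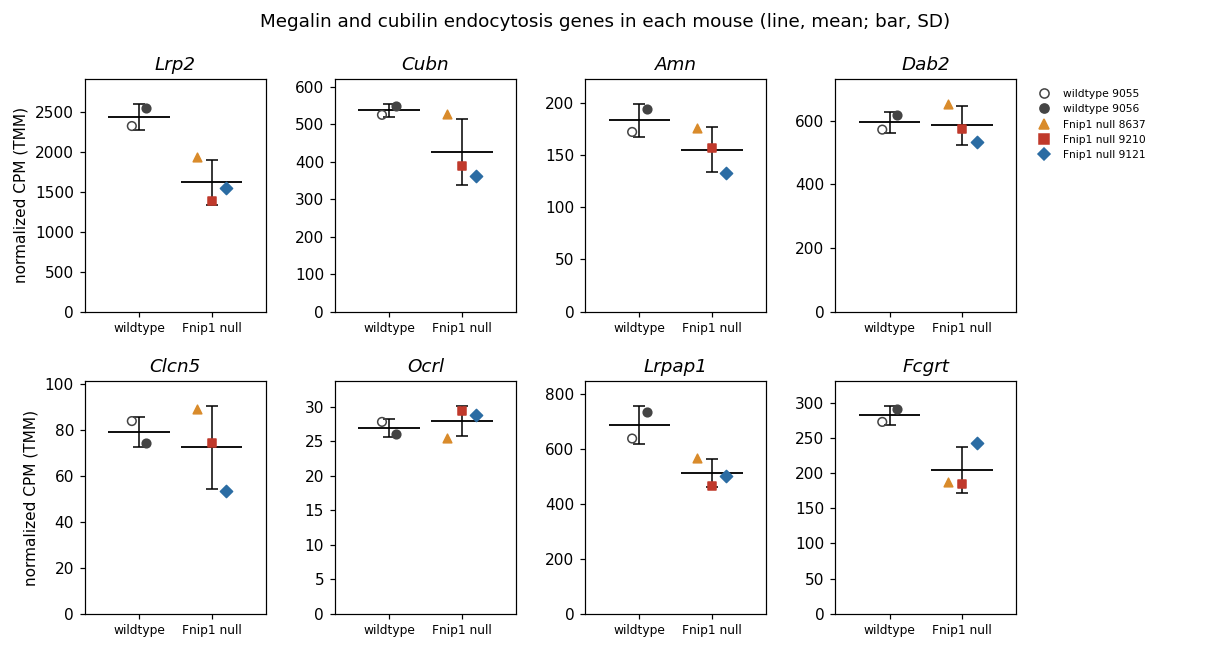
Normalized CPM of each of the 8 genes (vertical axes, each from 0) in each mouse, by genotype, with the group mean as a line and the SD as a bar (2 wildtype and 3 *Fnip1* null mice). The null mice sit below both wildtype mice for *Lrp2*, *Lrpap1* and *Fcgrt*, and the genotypes overlap for the other 5 genes.

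Megalin, the large multiligand receptor that carries most filtered proteins, was the most abundant of the 8 in counts per gene. *Lrp2* (chr2:69424340-69586065, 79 exons, 4660 coded residues, GENCODE M21 on GRCm38) was at 1930, 1379 and 1549 CPM in null mice 8637, 9210 and 9121, and at 2323 and 2550 CPM in wildtype mice 9055 and 9056. All null values were below the lower wildtype value. The means were 1619 ± 282 (SD, n = 3) and 2437 ± 161 (SD, n = 2). The log2 fold change was -0.59 (SE 0.212, 95% interval -1.10 to -0.08), with an adjusted p of 0.162 by the quasi-likelihood test. Adjusted p-values were 0.0638 by the exact test of edgeR, 0.0626 by its likelihood ratio test and 0.0152 by DESeq2. The difference had been estimated from 23208 to 44616 reads per mouse, so counting error was small beside the spread between mice. Without mouse 8637, the null mouse nearest to wildtype, the adjusted p of *Lrp2* was 0.0278 by the quasi-likelihood test of edgeR and the log2 fold change -0.73. Without mouse 9121 they were 0.279 and -0.56, and without mouse 9210 they were 0.442 and -0.49. The log2 fold change of *Lrp2* was -0.66 without 9055 and -0.52 without 9056.

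Cubilin has no membrane span and reaches the surface bound to amnionless. *Cubn* (chr2:13276338-13491813, 67 exons, 3623 coded residues) was at 527, 388 and 363 CPM in the null mice and at 525 and 549 CPM in the wildtype mice. Null mouse 8637 lay between the wildtype mice, and the other 2 null mice lay below them. *Cubn* means were 426 ± 88.6 (SD, n = 3) and 537 ± 16.8 (SD, n = 2), with a log2 fold change of -0.33 (SE 0.178, 95% interval -0.76 to 0.10, adjusted p = 0.288 by the quasi-likelihood test). The value depended on which mouse was left out. Without 8637 the log2 fold change of *Cubn* was -0.51 and the adjusted p 0.0208 by the same edgeR test, without 9121 they were -0.23 and 0.507, and without 9210 they were -0.27 and 0.573. The fit without 8637 also called *Lrp2* and *Lrpap1*, so that 3 of the 8 passed the FDR where 20.0% of all genes did. Exons of *Cubn* share 207 bases with *Gm13270* on the opposite strand, and whether the counting used strand is not given in the sources used here.

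*Amn* (chr12:111271095-111276426, 12 exons, 458 coded residues), which carries cubilin out of the endoplasmic reticulum, was at 176, 157 and 133 CPM in null mice and at 172 and 194 CPM in wildtype mice. As for *Cubn*, null mouse 8637 lay between the wildtype mice and the other 2 below them. The *Amn* means were 155 ± 21.5 (SD, n = 3) and 183 ± 15.6 (SD, n = 2), and the log2 fold change was -0.24 (SE 0.137, 95% interval -0.57 to 0.09, adjusted p = 0.316 by the quasi-likelihood test). The value for *Amn* was -0.14 without mouse 9121, -0.15 without 9056 and -0.33 without 8637, with adjusted p-values of 0.571, 0.772 and 0.0937. The ratio of *Cubn* to *Amn* counts within a library was 3.00, 2.47 and 2.73 in null mice and 3.05 and 2.83 in wildtype mice, and the genotypes overlapped (exact permutation test, two-sided, p = 0.4).

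*Lrpap1* (chr5:35091501-35105766, 8 exons, 360 coded residues) encodes RAP, which binds megalin in the endoplasmic reticulum and keeps ligands off it until it has left. *Lrpap1* was at 565, 465 and 502 CPM in null mice and at 637 and 735 CPM in wildtype mice. The groups did not overlap. Its means were 511 ± 50.4 (SD, n = 3) and 686 ± 68.8 (SD, n = 2), and the log2 fold change was -0.42 (SE 0.136, 95% interval -0.75 to -0.10). The adjusted p of *Lrpap1* was 0.134 by the quasi-likelihood test, 0.133 by the exact test and 0.0373 by DESeq2. It was 0.0339 by the quasi-likelihood test without mouse 8637, 0.217 without mouse 9121 and 0.382 without mouse 9210. The log2 fold change of *Lrpap1* was -0.52 without 9055 and -0.32 without 9056. With 10 ways to divide 5 mice into 3 and 2, the exact permutation test (two-sided) can give no p below 0.1. It gave 0.1 for *Lrpap1*, 0.2 for *Lrp2* and *Fcgrt*, 0.3 for *Cubn* and *Amn*, and 0.6 to 0.9 for *Ocrl*, *Clcn5* and *Dab2*.

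*Dab2* (chr15:6299788-6440712, 766 coded residues), the adaptor that links the megalin tail to clathrin and AP-2, was at 652, 572 and 532 CPM in null mice and at 572 and 619 CPM in wildtype mice. Null mice lay above, within and below the wildtype range. The means, 585 ± 61.0 (SD, n = 3) and 595 ± 33.2 (SD, n = 2), gave a log2 fold change of -0.02 (SE 0.132, 95% interval -0.34 to 0.30, adjusted p = 0.926 by the quasi-likelihood test). The interval covers the value of *Amn*. Without mouse 9121 the value was 0.04. Its sign also turned under other scalings, to 0.13 with total counts only and 0.36 relative to proximal tubule markers. Exons of *Dab2* share 211 bases with *Gm18888* on the opposite strand, so the limit on strand given for *Cubn* holds here too.

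*Clcn5* and *Ocrl*, the X-linked genes of Dent disease and Lowe syndrome, encode the exchanger ClC-5 of acidifying endosomes and an inositol phosphatase that acts on the membrane lipids of endosomes. *Clcn5* (chrX:7153810-7319358, 816 coded residues) was at 89.2, 74.6 and 53.5 CPM in null mice and at 83.9 and 74.6 CPM in wildtype mice. It varied most among null mice, from above the wildtype mice in 8637 to below them in 9121. The log2 fold change of *Clcn5* was -0.13 (SE 0.208, 95% interval -0.63 to 0.37, adjusted p = 0.726 by the quasi-likelihood test), and it was 0.05 without mouse 9121. *Ocrl* (chrX:47912387-47965868, 24 exons, 900 coded residues) was at 25.5, 29.5 and 28.9 CPM in null mice and at 27.8 and 26.0 CPM in wildtype mice. Mouse 8637 was below both wildtype mice and the other 2 null mice were above them. Its log2 fold change was 0.05 (SE 0.112, 95% interval -0.22 to 0.32, adjusted p = 0.790 by the quasi-likelihood test), from 433 to 547 reads per mouse, and was 0.03 without mouse 9121 and 0.12 without mouse 8637.

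*Fcgrt* (chr7:45092990-45103851, 7 exons, 369 coded residues) encodes the heavy chain of the neonatal Fc receptor, which binds albumin and IgG in acid endosomes and spares them from lysosomes. *Fcgrt* was at 187, 185 and 242 CPM in null mice and at 273 and 291 CPM in wildtype mice. All null values were below the lower wildtype value, with 9121 the nearest to it. The means were 205 ± 32.5 (SD, n = 3) and 282 ± 13.0 (SD, n = 2), and the log2 fold change of *Fcgrt* was -0.46 (SE 0.142, 95% interval -0.80 to -0.12). The adjusted p was 0.127 by the quasi-likelihood test, 0.0999 by the exact test and 0.0551 by DESeq2, and 0.0557 by the quasi-likelihood test without mouse 9121, where the log2 fold change was -0.60. *B2m*, which encodes the light chain of the same receptor and of MHC class I, was at 243, 300 and 517 CPM in null mice and at 219 and 201 CPM in wildtype mice (log2 fold change 0.75, adjusted p = 0.201 by the quasi-likelihood test). Without mouse 9121, which had the highest level, the *B2m* value was 0.37 (adjusted p = 0.194 by the same test), and without mouse 9210 it was 0.86 (adjusted p = 0.346). Without mouse 8637 it was 0.96 (adjusted p = 0.0427), in a fit where 20.0% of all genes passed the FDR. The *B2m* value was 0.82 without 9055 and 0.69 without 9056. Within a library, *Fcgrt* counts were 0.770, 0.616 and 0.468 of *B2m* counts in null mice and 1.25 and 1.45 in wildtype mice. The groups did not overlap, and the exact permutation test gave 0.1, the smallest p possible here. *B2m* was named after its values were seen, so this p describes the ratio and is not independent support.

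**Figure D2:**
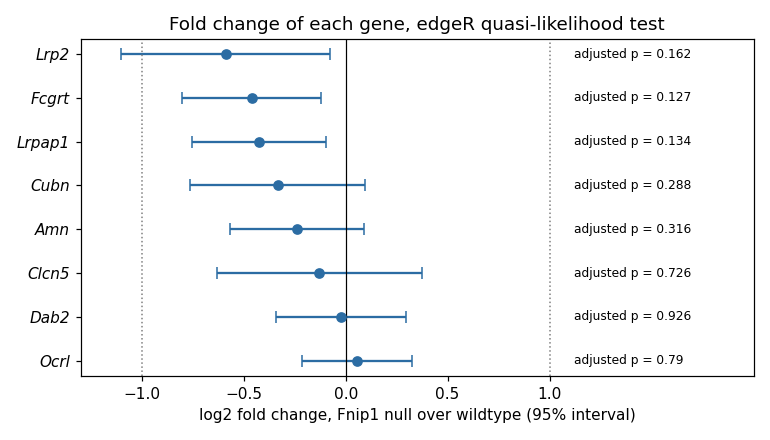
Log2 fold change of each of the 8 genes in *Fnip1* null over wildtype mice (horizontal axis), with its 95% interval and the adjusted p of the edgeR quasi-likelihood test (3 against 2 mice); dotted lines mark 2-fold. The intervals of *Lrp2*, *Fcgrt* and *Lrpap1* lie below 0 and no adjusted p is below 0.127.

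The 8 genes also differed in how far each null mouse stood from the wildtype mean. Mouse 8637 was at 79.2% of the wildtype mean for *Lrp2*, 98.2% for *Cubn*, 95.9% for *Amn* and 82.4% for *Lrpap1*. Mouse 9210 was at 56.6%, 72.2%, 85.7% and 67.8% for the same genes, and mouse 9121 at 63.6%, 67.6%, 72.5% and 73.2%. For these 4 genes, mouse 8637 was the nearest of the null mice to wildtype. *Fcgrt* had another order, with 66.4% in 8637, 65.5% in 9210 and 85.9% in 9121.

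Ratios within a library do not depend on how libraries are scaled. *Lrp2* counts were 2.96, 2.41 and 2.91 times *Dab2* counts in null mice and 4.06 and 4.12 times in wildtype mice. The groups did not overlap, and the mean ratio in null mice was 0.675 of that in wildtype mice (exact permutation test, two-sided, p = 0.1, the smallest possible). *Lrp2* counts were 3.66, 3.56 and 4.27 times *Cubn* counts in null mice and 4.42 and 4.65 times in wildtype mice. Here too every null mouse was below both wildtype mice, with a mean ratio 0.844 of that in wildtype mice (exact permutation test, p = 0.2). The ratio of *Lrp2* to *Lrpap1* was 3.42, 2.96 and 3.08 in null mice and 3.64 and 3.47 in wildtype mice. The ratio of *Cubn* to *Dab2* was 0.809, 0.678 and 0.682 in null mice and 0.919 and 0.888 in wildtype mice, again without overlap (exact permutation test, p = 0.2 for each). A ratio gives only relative levels, and does not say which gene of a pair differed. The pairs were picked, from genes chosen with earlier results of these data known. *Lrp2* and *Dab2* had log2 fold changes of -0.59 and -0.02, so a lower ratio follows from values already given. The share of other gene pairs whose ratios separate is not given here, so these ratios have no background. Their p-values describe the pairs shown and are not independent support.

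Levels were also set against proximal tubule markers in the same library. Of 14 marker genes of that segment, 0 passed FDR with 2-fold by the quasi-likelihood test, 3 were lower and 3 higher at an unadjusted p under 0.05, and at the FDR alone the exact, likelihood ratio and DESeq2 tests called 2, 3 and 5. Null mice were below both wildtype mice in 6 of the 14 and above them in 4 (23.0% and 22.9% over all genes). The median log2 fold change was -0.21. Their summed level was 15406 to 21265 CPM in null mice and 21875 to 24388 CPM in wildtype mice, without overlap. No marker was at 0. *Slc34a1* and *Slc27a2* weighed most in the sum, with means of 6027 and 5209 of 23132 CPM in wildtype mice. In null mice these were 4714 and 2986 of 17835 CPM. The 4 markers above both wildtype mice were *Slc5a2*, *Slc5a12*, *Slc6a19* and *Gatm*, so the sum does not stand for every marker. Without mouse 9121 the median was -0.16. Set against this sum, *Lrp2* was at 9.08%, 8.19% and 10.1% in null mice and at 10.6% and 10.5% in wildtype mice, the only gene of the 8 with every null mouse below both wildtype mice. *Cubn*, at 2.48%, 2.30% and 2.36% against 2.40% and 2.25%, overlapped, as did *Lrpap1* at 2.66%, 2.76% and 3.26% against 2.91% and 3.01% and *Fcgrt* at 0.881%, 1.10% and 1.57% against 1.25% and 1.19%. *Dab2*, at 3.07%, 3.40% and 3.45% against 2.61% and 2.54%, and *Amn*, at 0.827%, 0.933% and 0.862% against 0.787% and 0.797%, were above both wildtype mice in every null mouse. No gene of the 8 passed the FDR on this scale by the quasi-likelihood test, where 852 of all 13874 genes tested did. With the 2-fold threshold, 606 of all genes were up and 52 down. The share of all genes above or below both wildtype mice on this scale is not given here, so the counts of the 8 have no background. Scaling to these markers moved the median log2 fold change of all genes by 0.40, and scaling to total counts moved it by 0.16, so signs are to be read relative to these shifts.

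**Figure D3:**
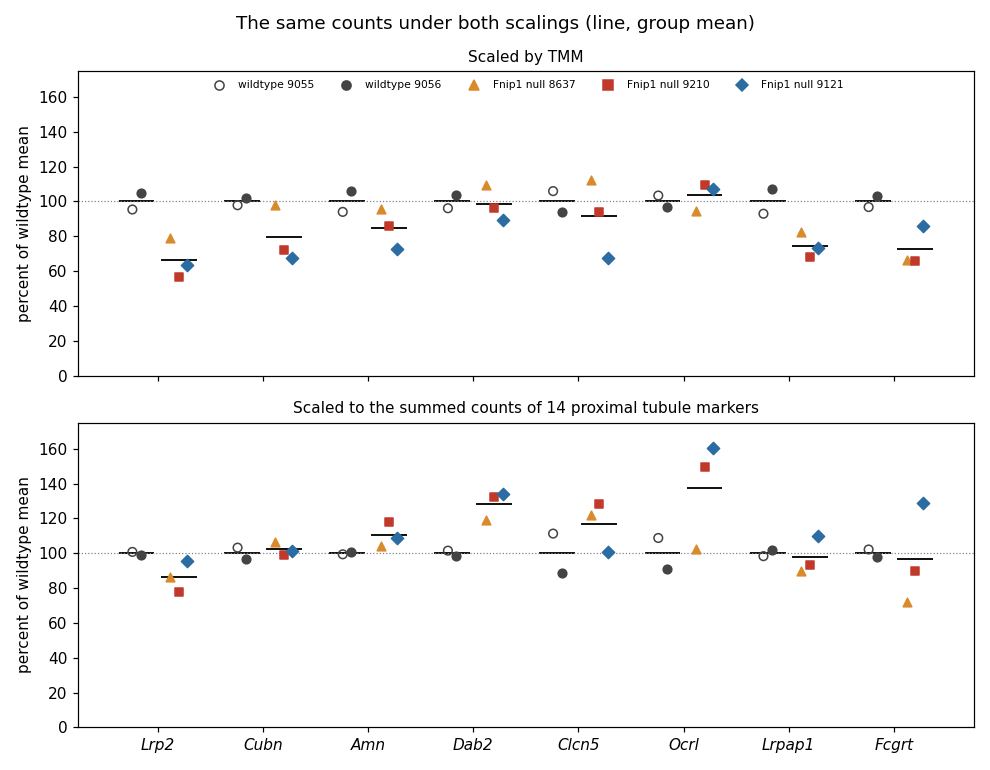
Level of each of the 8 genes in each mouse as a percent of the wildtype mean (vertical axes, from 0), after TMM scaling (top) and relative to the summed counts of 14 proximal tubule markers (bottom), with group means as lines. The null mice lie below both wildtype mice for *Lrp2*, *Lrpap1* and *Fcgrt* in the top panel and only for *Lrp2* in the bottom panel.

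Markers of other cell types were summed in the same way. Over all 13874 genes tested, 1936 were higher and 1552 lower at an unadjusted p under 0.05, and 22.9% lay above both wildtype mice in every null mouse. At the FDR alone, 0.678% passed by the quasi-likelihood test and 9.77%, 10.6% and 10.3% by the exact, likelihood ratio and DESeq2 tests. The counts for each cell type are to be read beside these. Of 5 podocyte genes, all were higher in every null mouse than in both wildtype mice, and 3 passed the FDR by the quasi-likelihood test, among them *Nphs1*, which encodes nephrin (log2 fold change 1.08, adjusted p = 0.0354). Its call was lost without mouse 9210, 9055 or 9056, settings in which 0 of all genes tested were called by the quasi-likelihood test (*Nphs1* adjusted p = 0.132, 0.213 and 0.491), though 2053, 2465 and 1225 genes had an unadjusted p under 0.05. Their summed level was 658 to 773 CPM in null mice and 367 to 370 CPM in wildtype mice. Of 6 distal nephron genes, 0 passed the test (4 were higher at an unadjusted p under 0.05, and 2, 2 and 3 passed the FDR by the exact, likelihood ratio and DESeq2 tests), and their summed level was 8224 to 11932 CPM against 7692 to 8592 CPM. Of 5 endothelial genes, 0 passed (3 were higher at an unadjusted p under 0.05, and 1, 1 and 2 by the other tests), with a summed level of 261 to 334 CPM against 137 to 236 CPM. Of 7 leukocyte genes tested, 0 passed (5 were higher and 1 lower at an unadjusted p under 0.05, and the other tests called 4 each). Log2 fold changes were above 0 for 6 of the 7. The summed level over all 9 listed was 78.5 to 171 CPM against 88.9 to 107 CPM. *Csf1r*, the 1 gene below 0 (log2 fold change -0.61), weighed most in this sum. Its mean was 70.3 of 97.8 CPM in wildtype mice and 46.2 of 116 CPM in null mice. The B cell gene *Cd79a* was at 0 counts in all 3 null mice and at 12 and 6 counts in wildtype mice. *Ms4a1*, the other B cell gene listed, was at 0, 0 and 2 counts against 3 and 5. Neither passed the filter on low counts, and neither was tested. Median log2 fold changes of the podocyte, distal nephron, endothelial and leukocyte genes were 0.90, 0.48, 0.66 and 1.43. Without mouse 9121 they were 0.89, 0.48, 0.54 and 0.91, with 2 distal nephron genes below 0. Mouse 9121 had the highest distal nephron, endothelial and leukocyte sums. Distal nephron sums of the other null mice, 8224 and 8476 CPM, lay within the wildtype range. The part of these marker differences in the values of the 8 genes was not tested.

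The wider pathway was read from lists of genes by role. Over all genes tested, 23.0% lay below both wildtype mice and 22.9% above them in every null mouse. At the FDR alone, the exact, likelihood ratio and DESeq2 tests called 9.77%, 10.6% and 10.3% of all genes. List counts below are to be read beside these shares. Among 35 tested genes of the endocytic machinery (clathrin, AP-2, Rab GTPases, early endosome and recycling factors), 0 passed the FDR by the quasi-likelihood test, 24 of the log2 fold changes were below 0 and 11 above it, and their median was -0.06. At an unadjusted p under 0.05, 1 was lower and 3 were higher, and the exact, likelihood ratio and DESeq2 tests called 1, 1 and 2 at the FDR alone. Every null mouse was below both wildtype mice in 6 of the 35 and above them in 7. *Ehd1*, a recycling endosome ATPase and the lowest of the list, was at 149, 136 and 137 CPM in null mice and at 168 and 186 CPM in wildtype mice (log2 fold change -0.33, adjusted p = 0.114 by the quasi-likelihood test). Its relative *Ehd3*, the highest, was at 70.1, 77.3 and 63.3 CPM against 52.3 and 37.0 CPM (log2 fold change 0.65, adjusted p = 0.103 by the same test). Without mouse 8637 the adjusted p of *Ehd1* was 0.0360 by the quasi-likelihood test, in a fit where 20.0% of all genes passed the FDR. It was 0.190 without 9121 and 0.337 without 9210. The log2 fold change of *Ehd1* was -0.40 without 9055 and -0.26 without 9056. Without mouse 9121 the median of the list was -0.03. With total counts only, 5 of the list were negative and 30 positive, and relative to the proximal tubule markers all 35 were positive.

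Megalin belongs to the lipoprotein receptor family, and 12 further members were tested. By the quasi-likelihood test 0 passed the FDR, with 4 lower and 2 higher at an unadjusted p under 0.05, and the exact, likelihood ratio and DESeq2 tests called 4 each at the FDR alone. Null mice were below both wildtype mice in 6 of the 12 and above them in 2, and the median log2 fold change was -0.12 (0.04 with total counts only and 0.27 relative to proximal tubule markers). *Lrp12*, the lowest, was at 12.0, 10.8 and 15.7 CPM in null mice and at 22.8 and 27.8 CPM in wildtype mice (log2 fold change -0.98, SE 0.191, adjusted p = 0.0719 by the quasi-likelihood test and 0.000748 by the exact test). The adjusted p of *Lrp12* by the quasi-likelihood test was 0.0324 without mouse 9121. It was 0.0314 without 8637, where 20.0% of all genes passed the FDR, and 0.253 without 9210, where 0 of all genes did. The log2 fold change of *Lrp12* was -1.12 without 9055 and -0.83 without 9056. Without mouse 9121 the family median was -0.14. Other members of the family thus lay below the wildtype range too, as did 23.0% of all genes tested.

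**Figure D4:**
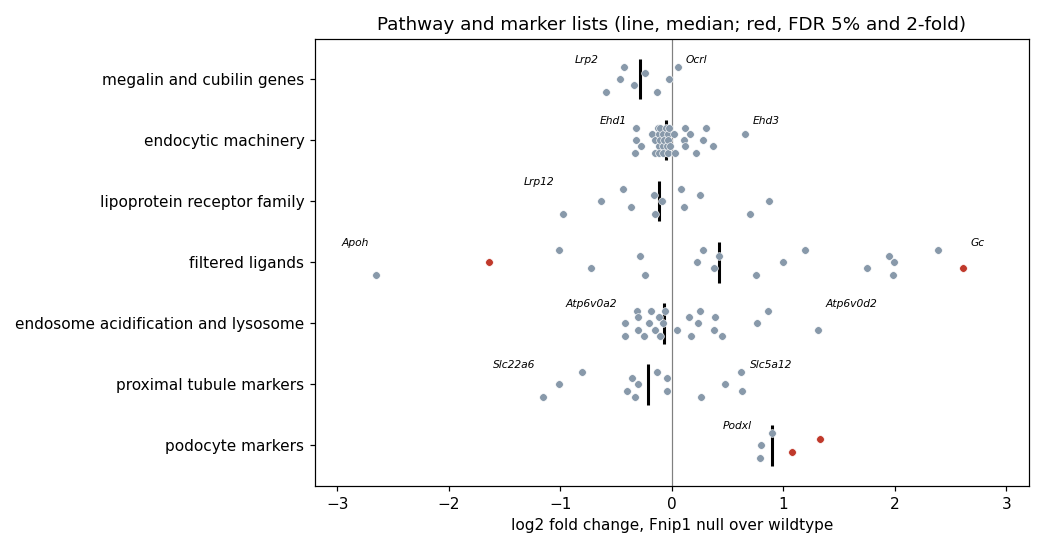
Log2 fold change in *Fnip1* null over wildtype mice (horizontal axis) of each tested gene of the megalin and cubilin group, of 4 pathway lists and of proximal tubule and podocyte markers, with list medians as lines and genes at FDR 5% and 2-fold in red. The 8 genes have a median of -0.29 and no red point, the ligand list ranges from -2.65 to 2.61, and the 5 podocyte genes are all above 0.

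Transcripts for proteins that megalin and cubilin take up were the list with the largest spread, although filtered ligands are mostly made elsewhere and kidney RNA measures only local synthesis. Of 19 tested, 1 was higher and 1 lower at FDR 5% and 2-fold by the quasi-likelihood test. *Gc*, which encodes the vitamin D binding protein that megalin retrieves from the filtrate, rose from 17.5 and 17.4 CPM in wildtype mice to 68.8, 105 and 147 CPM in null mice (log2 fold change 2.61, SE 0.324, adjusted p = 0.0410 by the quasi-likelihood test). *Ttr*, which encodes the thyroxine and retinol carrier transthyretin, fell from 117 and 141 CPM to 49.9, 41.5 and 32.4 CPM (log2 fold change -1.64, SE 0.187, adjusted p = 0.0378 by the same test). Both were beyond the wildtype range in every null mouse. With all 5 mice, the adjusted p of *Gc* was 4.02e-11 by the exact test and 9.80e-15 by DESeq2, and that of *Ttr* was 1.97e-11 and 2.05e-11. Both calls were lost when mouse 9210 was left out (adjusted p = 0.166 for each by the quasi-likelihood test), with the same direction. In that fit 0 of all genes tested passed the FDR. Log2 fold changes of *Gc* and *Ttr* were 2.62 and -1.77 without 9055, and 2.61 and -1.50 without 9056. Without mouse 9121 both calls held, with log2 fold changes of 2.31 for *Gc* and -1.50 for *Ttr* (adjusted p = 0.0136 and 0.0144 by the quasi-likelihood test).

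Other ligands did not pass that test. Log2 fold changes were above 0 for 13 of the 19 and below it for 6, the median was 0.42, and the exact, likelihood ratio and DESeq2 tests called 6, 7 and 7 at the FDR alone. *Apoe* was at 376, 551 and 873 CPM in null mice and at 165 and 146 CPM in wildtype mice (log2 fold change 1.95, adjusted p = 0.0655 by the quasi-likelihood test). *Lcn2*, which encodes the siderophore binder NGAL, was at 3.18, 5.35 and 2.80 CPM against 0.745 and 0.686 CPM (log2 fold change 2.38, adjusted p = 0.0644 by the quasi-likelihood test). *Sepp1*, the selenium carrier, was at 2681, 1600 and 1139 CPM against 3711 and 3556 CPM (log2 fold change -1.01, adjusted p = 0.166 by the quasi-likelihood test). By the exact test the adjusted p was 4.27e-05 for *Apoe*, 8.63e-05 for *Lcn2* and 0.0514 for *Sepp1*. By DESeq2 the values in the same order were 1.92e-07, 0.000233 and 0.0223. *Apoh* had the lowest log2 fold change, -2.65 (adjusted p = 0.156 by the quasi-likelihood test), and was at 3.24, 0.119 and 0.211 CPM against 6.58 and 8.17 CPM, where the value of mouse 9210 came from 2 counts. Without mouse 8637, the null mouse with the highest level, *Apoh* was at -5.40 (adjusted p = 0.00344), and without 9121 at -2.13 (adjusted p = 0.181). The transcript of cobalamin carrier transcobalamin, *Tcn2*, overlapped between the genotypes, at 1855, 1516 and 1477 CPM against 1853 and 2094 CPM. Without mouse 8637 the adjusted p by the quasi-likelihood test was 0.00640 for *Apoe*, 0.0193 for *Lcn2* and 0.0135 for *Sepp1*. Without mouse 9121 these were 0.0234, 0.0415 and 0.246, and the median of the list was 0.32. None of the 3 passed without 9210, where the lowest adjusted p was 0.182 by the quasi-likelihood test and 0 of all genes tested passed the FDR. Log2 fold changes of *Apoe*, *Lcn2* and *Sepp1* were 2.03, 2.44 and -0.98 without 9055, and 1.86, 2.33 and -1.04 without 9056. *Apoe*, *Lcn2*, *Sepp1*, *Tcn2* and *B2m* are named after their values were seen.

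**Figure D5:**
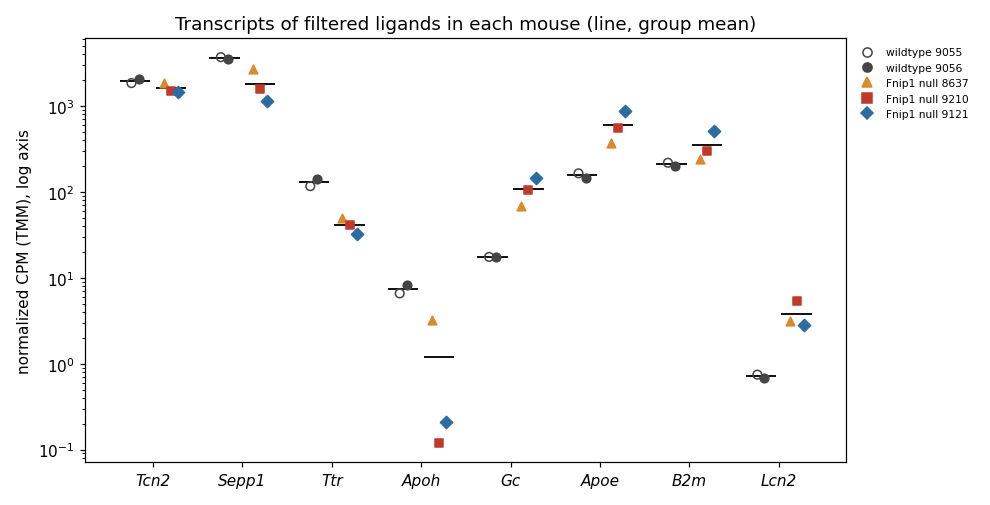
Normalized CPM of 8 transcripts for filtered ligands (vertical log axis) in each mouse, with group means as lines (2 wildtype and 3 *Fnip1* null mice). *Gc* and *Ttr*, the genes past FDR 5% and 2-fold, lie above and below both wildtype mice in every null mouse, and *Tcn2* overlaps.

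Endosome acidification and lysosomal genes, which release and digest the cargo, were read last. Of 24 tested, 0 passed the FDR by the quasi-likelihood test, 4 were higher and 4 lower at an unadjusted p under 0.05, and the exact, likelihood ratio and DESeq2 tests called 3, 3 and 5 at the FDR alone. Null mice were below both wildtype mice in 8 and above them in 7, and the median log2 fold change was -0.07 (0.09 with total counts only, 0.32 relative to proximal tubule markers and 0.01 without mouse 9121). *Atp6v0a2*, a membrane subunit of the proton pump and the lowest of the list, was at 106, 99.0 and 93.3 CPM in null mice and at 130 and 135 CPM in wildtype mice (log2 fold change -0.42, adjusted p = 0.0791 by the quasi-likelihood test). *Atp6v0d2*, a pump subunit known from intercalated cells and osteoclasts and the highest, was at 104, 155 and 120 CPM against 46.3 and 55.4 CPM (log2 fold change 1.31, adjusted p = 0.0506 by the quasi-likelihood test). Without mouse 9121, 8637 and 9210 the adjusted p was 0.0349, 0.00698 and 0.146 for *Atp6v0d2* and 0.117, 0.0188 and 0.275 for *Atp6v0a2*. In these fits, 20.0% of all genes passed the FDR without 8637 and 0 without 9210. Log2 fold changes of *Atp6v0d2* and *Atp6v0a2* were 1.19 and -0.44 without 9055, and 1.45 and -0.39 without 9056. *Atp6v0a2* was below and *Atp6v0d2* above both wildtype mice in every null mouse.

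Genes whose levels followed those of the receptors most closely over the 5 mice were found from the root mean square difference of mean-centred log2 CPM, which is a description over few mice. For *Lrp2* they were *Slc1a1*, a glutamate transporter (0.0268), *Htra1*, a serine protease (0.0356), *Mgam*, a maltase (0.0426), *Hnf4g*, a nuclear receptor (0.0474), and *Pdk3*, a pyruvate dehydrogenase kinase (0.0491), beside a median difference of 0.369 over all genes. For *Cubn* they were *Wdr7* (0.00995), *Gcc2* (0.0157), *Slc17a5* (0.0159), *Neu1* (0.0226) and *Eea1* (0.0244), beside a median of 0.297. Among the 8 genes, the closest pairs were *Cubn* and *Amn* at 0.109, the receptor and its partner, and *Lrp2* and *Lrpap1* at 0.112, the receptor and its chaperone. Many other genes were as close, since 4.43% of all genes were nearer to *Cubn* than *Amn* was and 1.41% were nearer to *Lrp2* than *Lrpap1* was.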

How the data were processed

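RNA was measured in cortical kidney tissue of 3 *Fnip1* null and 2 wildtype mice, grouped by the genotype and title in the labels. The authors prepared libraries with the TruSeq RNA kit, sequenced paired ends, removed reads of low quality, aligned the rest to mm10 with TopHat 2.1.0 and counted reads per gene symbol with HTSeq 0.6.1. The deposited files hold these raw counts. Rows that name no gene held 39.0% to 42.8% of reads and were left out. Per-gene counting discards reads that align to several places.

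Genes below 10 counts in over 2 of the 5 mice were removed, and the 13874 genes left were also those tested when a mouse was left out. Counts were normalized by TMM and compared with the quasi-likelihood test of edgeR 4.0.16 (legacy = FALSE, R 4.3.3), with Benjamini-Hochberg adjustment over all genes tested, an FDR of 5% and 2-fold. Standard errors were derived from the fold change and its F statistic. Alternatives were the exact and likelihood ratio tests, DESeq2 1.42.0, other normalizations and filters, and leaving out each mouse. The labels give the mice as separate animals, and p-values measure the spread between these 5. Lengths and gene positions are from GENCODE M21 and promoters from RefSeq, both on GRCm38, matched by symbol for 8 of 8 genes. The 8 genes, the lists, the motifs and the rule for named genes (all 8 genes, the genes past the threshold and the lowest and highest of each pathway list with a mean of at least 1 CPM, and the 5 genes nearest to *Lrp2* and *Cubn*) were chosen with earlier results of these data known. Items withheld for evaluation are not reported here.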

Additional observations from a re-analysis of the deposited data

How the results depend on the processing

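Over 15 alternative settings the 8 genes gave 120 log2 fold changes, of which 105 kept their direction and side of the FDR, 5 newly passed it and 10 changed sign. The count of genes at FDR 5% and 2-fold was 73, against 565 by the exact test, 628 by the likelihood ratio test, 487 by DESeq2, 658 relative to proximal tubule markers (606 up and 52 down, against 56 and 17) and 0 to 911 with 1 mouse left out: 911 without 8637, 138 without 9121 and 0 without 9210, 9055 or 9056. Of the 8 genes, 0 passed the FDR, against 2 by DESeq2 and 0 to 3 with 1 mouse left out (3 without 8637). The number below both wildtype mice was 3, against 2 with total counts only and 1 relative to proximal tubule markers. It was 3 to 5 with 1 mouse left out (5 without 8637 and 5 without 9055). Fewer mice of either genotype are more easily separated. The share of all genes below in these fits is not given here, so the rise cannot be read as a stronger difference. The number above was 0, against 1 with total counts only, 2 relative to proximal tubule markers and 0 to 1 with 1 mouse left out. Values that changed sign were *Dab2* (0.0374 with upper quartile scaling, 0.135 with total counts only, 0.360 relative to proximal tubule markers, -0.103 to 0.0404 with 1 mouse left out), *Clcn5* (0.0189, 0.227 and -0.303 to 0.0471 with total counts, proximal tubule markers and 1 mouse left out), *Cubn* (0.0329) and *Amn* (0.142), both relative to proximal tubule markers. With total counts only, 73 genes were up and 12 down. The cause of these changes was not tested. Leaving out a wildtype mouse leaves 1, which is assumed to vary like the null mice. No paired analysis was possible because the mouse numbers in the labels are not shared between the genotypes.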
